A study of Homo sapiens with 9 samples.

Results

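A set of α- and β-tubulin genes expressed in HEK293T cells was followed through an RNA immunoprecipitation of the CCR4-NOT complex. Both factors of tubulin mRNA autoregulation were followed with them. The members were 10 genes of the 30956 in the deposited table, matched by exact gene symbol: 4 α-tubulins (TUBA1A, TUBA1B, TUBA1C, TUBA4A), 4 β-tubulins (TUBB, TUBB2A, TUBB4B, TUBB6), TTC5 and SCAPER. RNA immunoprecipitation sequencing (RIP-seq) recovers RNA that purifies with a bait, here V5-tagged CNOT7, a nuclease subunit of CCR4-NOT that carries a substitution impairing catalysis. HEK293T is a human embryonic kidney line. The labels give 3 RIP libraries, 3 input libraries from cells kept with doxycycline at 3 µg/mL, and 3 input libraries from cells kept without it. All groups share the line, the culture medium, a cytoplasmic RNA label and depletion of ribosomal RNA, and the labels do not say whether the RIP cells had doxycycline or what it induced.

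The 3 input columns of the table are numbered but not marked for doxycycline, so they are called input columns here and their kind is not known. Recovery of RNA by untagged cells was not analysed here and was not subtracted. In bulk libraries such as these, fewer cells holding an RNA and less of it per cell cannot be told apart. The labels do not tell whether replicates are separate cultures, and p-values then cover only the spread among the libraries, which may be technical.

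Tubulin dimers of 1 α and 1 β subunit polymerise into microtubules. Cells hold the pool of free dimers steady by autoregulation: when free tubulin rises, TTC5 binds the first residues of α- and β-tubulin as they leave the ribosome. TTC5 then recruits SCAPER, which brings CCR4-NOT to the translated mRNA, and its poly(A) tail is shortened. The comparison of RIP with input asks whether each mRNA had a higher or lower relative level in RNA recovered with the bait than in input RNA. A lower relative level does not show that an mRNA was not held by the complex.

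The RIP libraries held 37140622 to 40764899 reads in genes and the input columns 37290120 to 38918356. RIP replicate 2 stood apart, with 14786 genes at 0 against 6398 and 6720 in the other RIP libraries. The input columns had 10056 to 12079 genes at 0. Among 12370 genes with a mean of at least 100, RIP replicate 2 correlated by 0.917 and 0.922 with RIP replicates 1 and 3 (Pearson, log2 values). RIP replicates 1 and 3 correlated by 0.981, and each pair of input columns by 0.978. Mitochondrially encoded RNA made up 0.931% to 1.12% of reads in RIP and 18.6% to 26.6% in the input columns. The bait's mRNA, CNOT7, was higher in RIP, with a log2 fold of 1.80 ± 0.13 (SE; limma adjusted p = 1.4e-06), and counts do not separate tagged from endogenous transcripts. All 7 markers of the line (NEFM, NEFL, ENO2, LIN28B, VIM, KRT18, CDH2) averaged at least 100 normalized counts, and their summed level was 26457 to 27177 in RIP and 48087 to 50207 in the input columns. Most of that gap was VIM, at 9425 to 10934 in RIP and 27557 to 31429 in the input columns, while ENO2 was higher in RIP, at 1280 to 1726 against 918 to 1082. Of 12 markers of other cell types 6 had a row, and of these only COL1A1, a fibroblast collagen, averaged 100 or more. Their summed level was 334 to 536 in RIP and 376 to 556 in the input columns, and LYZ, ALB, DCN, PECAM1 and VWF stayed at or below 10.8 in every library.

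The 3 TUBA1 genes are neighbours on chromosome 12, and their stretches of DNA just upstream of the annotated start are printed with that of TUBB. The sequences are the last 100 bases before the start, 5′ to 3′ on the gene's strand, from RefSeq on GRCh38.p14, and capitals mark a CCAAT box (CCAAT) or a GC box (GGGCGG) on either strand.
TUBA1A, chr12:49189081-49189180, minus strand: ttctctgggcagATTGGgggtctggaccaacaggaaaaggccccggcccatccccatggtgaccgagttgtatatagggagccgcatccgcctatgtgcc
TUBA1B, chr12:49131396-49131495, minus strand: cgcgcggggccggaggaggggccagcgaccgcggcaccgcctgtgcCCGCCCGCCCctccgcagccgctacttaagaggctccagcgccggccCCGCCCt
TUBA1C, chr12:49227826-49227925, plus strand: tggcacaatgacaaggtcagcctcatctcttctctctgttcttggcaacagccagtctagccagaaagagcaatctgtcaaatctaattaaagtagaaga
TUBB, chr6:30720252-30720351, plus strand: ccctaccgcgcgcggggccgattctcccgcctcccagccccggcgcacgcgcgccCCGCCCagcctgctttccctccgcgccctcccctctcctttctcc
Within 250 bases upstream, 4 of the 8 tubulin members held a CCAAT box, 4 a GC box and 1 (TUBB2A) a TATA box (TATAAA), against 32%, 42.6% and 10.7% of 35116 RefSeq windows. In the sequences shown, TUBA1A had 1 CCAAT box, TUBA1B had 3 GC boxes, of which a pair overlaps, TUBB had 1 GC box and TUBA1C had neither. TUBA1C, TUBB and TUBB6 each have more than 1 annotated start. Only the outermost start of each member was searched and, for TUBA1C and TUBB, shown. Motifs at their other starts were not counted. A transcript start of C followed by at least 4 pyrimidines, the form of mRNAs with a 5′ terminal oligopyrimidine tract, was found at the annotated start of TUBB alone among the 8, and in 4.07% of all windows. These letters are a description of the loci. RIP-seq measures RNA and says nothing of promoter use.

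Most tubulin mRNAs were lower in RIP than in the input columns, and neither factor was. Of the 8 tubulins 7 were lower in RIP at an adjusted p under 0.05 and none was higher, where 21.2% of the 16765 genes tested were lower and 22.4% were higher (43.6% in either direction). The authors' deposited table also had 7 of the 8 lower and none higher (DESeq2 adjusted p under 0.05), where 19.9% of its genes with an adjusted p were lower, 20.6% were higher and 40.5% were called in all. The first test was limma on log2 of the normalized count plus 1, over all genes with a mean of at least 10. All 10 members passed that filter. The median log2 fold of RIP over input was -1.07 for the 8 tubulins and -0.04 for all genes tested. Every RIP library lay below every input column for 7 of the 8, as it did for 27.3% of the genes tested.

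**Figure D1:**
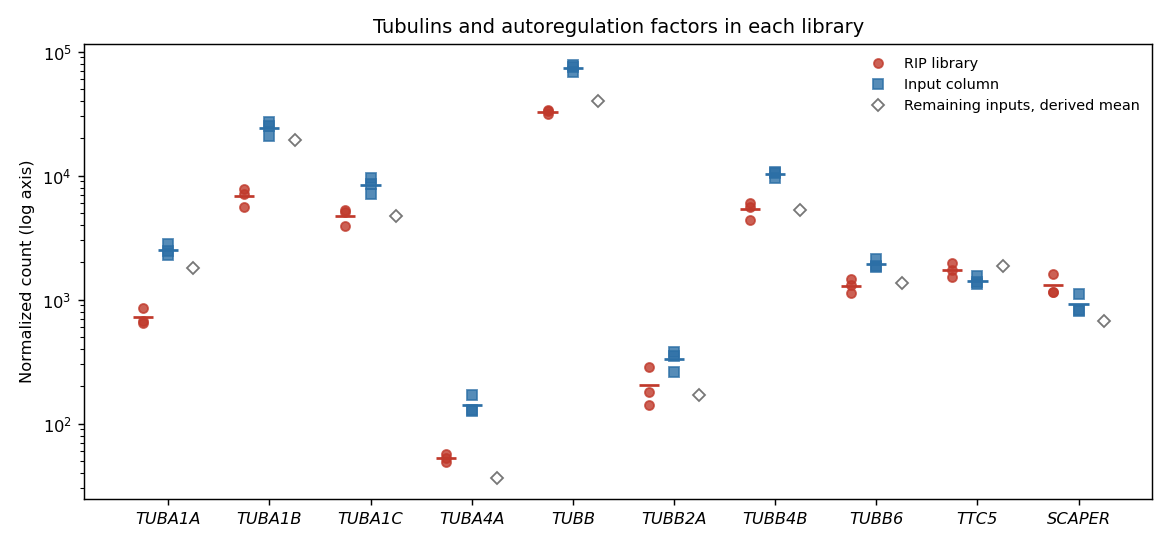
Normalized count (log axis) of each member in the 3 RIP libraries (circles), the 3 input columns (squares) and, as a derived mean without error, the 3 remaining inputs (diamonds). Short lines are group means. RIP circles lie below the input squares for 7 tubulins and overlap them for TUBB2A and TTC5.

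TUBA1B, the α-tubulin gene at chr12:49127782-49131395 (GRCh38.p14, as all locations here), had 5545, 7159 and 7823 normalized counts in RIP, against 20930, 24927 and 27290 in the input columns. The groups lay far apart, with the highest RIP library well below the lowest input column. Its log2 fold was -1.84 ± 0.15 (SE; limma adjusted p = 2.5e-06), the lowest of the members. RIP held 28.1% of the input mean.

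TUBA1A, the α-tubulin of growing neurons (chr12:49184795-49189080), had 676, 645 and 859 normalized counts in RIP, against 2303, 2485 and 2814 in the input columns. The groups did not overlap. The log2 fold was -1.81 ± 0.16 (SE; limma adjusted p = 5.1e-06), which differs from that of TUBA1B by less than either SE.

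TUBA1C, the third of the neighbours (chr12:49227926-49274600), was less depleted. It had 3958, 5101 and 5238 normalized counts in RIP, against 7043, 8623 and 9632 in the input columns. The groups did not overlap, and the log2 fold was -0.82 ± 0.15 (SE; limma adjusted p = 0.00077).

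TUBA4A, an α-tubulin of platelets and muscle (chr2:219249710-219254740), was scarce. It had 64, 66 and 73 reads in the RIP libraries and 122, 112 and 145 in the input columns, or 49.2 to 57.2 normalized counts in RIP against 127 to 169. The groups did not overlap, but the log2 fold of -1.38 ± 0.48 (SE) passed narrowly (limma adjusted p = 0.034). With RIP replicate 1, RIP replicate 3 or any 1 input column left out it did not pass (limma adjusted p = 0.067 to 0.13), and without RIP replicate 2 it did (limma adjusted p = 0.011).

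TUBB, the class I β-tubulin present in most tissues (chr6:30720352-30725422), had 31329, 33051 and 33507 normalized counts in RIP, against 68662, 74498 and 78488 in the input columns. Neither group spread by more than a small part of the gap between them. The log2 fold was -1.18 ± 0.12 (SE; limma adjusted p = 1.4e-05), and RIP held 44.2% of the input mean.

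TUBB4B, a widely expressed β-tubulin (chr9:137241287-137243707), had 4405, 5621 and 5975 normalized counts in RIP, against 9486, 10574 and 10765 in the input columns. All RIP libraries were lower, with a log2 fold of -0.96 ± 0.13 (SE; limma adjusted p = 0.00012). TUBB6, the class V β-tubulin (chr18:12307669-12329826), had 1123, 1470 and 1304 normalized counts in RIP, against 1840, 1882 and 2118 in the input columns. Its log2 fold of -0.59 ± 0.15 (SE; limma adjusted p = 0.0073) was the smallest among the tubulins that passed.

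TUBB2A, a class II β-tubulin (chr6:3153666-3157544), was the member of the family that did not pass. It had 142, 285 and 181 normalized counts in RIP, against 380, 352 and 263 in the input columns, and RIP replicate 2 lay above the lowest input column. The log2 fold was -0.75 with a 95% interval of -1.49 to -0.0027 (limma adjusted p = 0.099). Without RIP replicate 2, the library that stood apart, it was -1.02 and passed (limma adjusted p = 0.0085). TUBB2A has a close copy, TUBB2B, and reads of the pair could be split by the counting.

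**Figure D2:**
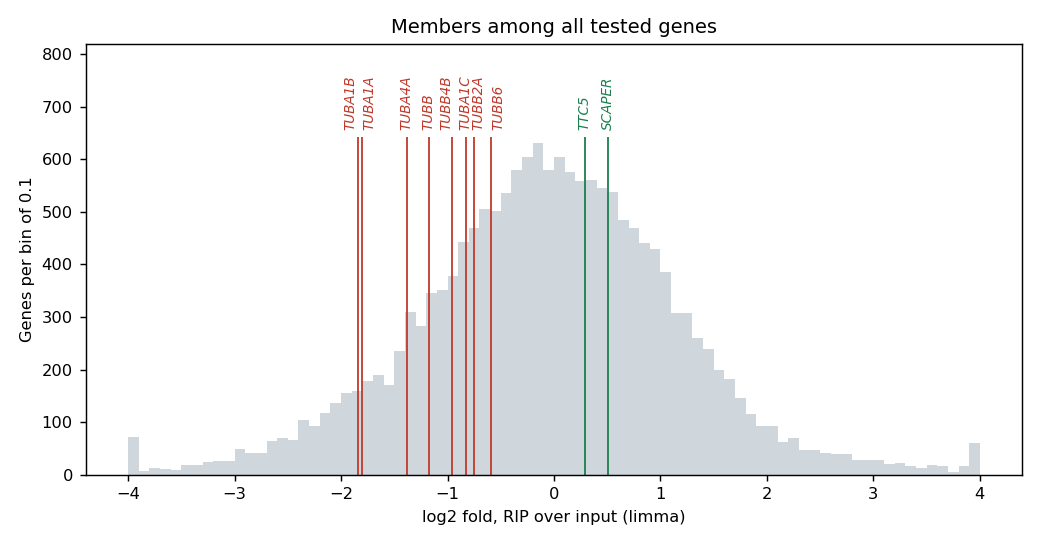
Number of genes per bin of 0.1 in log2 fold of RIP over input for the 16765 genes tested, with folds beyond 4 in either direction counted in the outermost bins. Red lines mark tubulins, from TUBA1B at -1.84 to TUBB6 at -0.59, and green lines mark TTC5 (0.29) and SCAPER (0.51).

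Among all genes tested the tubulin folds were low but not extreme. TUBA1B and TUBA1A stood at the 7.47th and 7.83rd percentile of folds, TUBB at the 16.5th, TUBB4B at the 21.2nd and TUBB6 at the 31.2nd. The 10th percentile of all folds was -1.61 on the log2 scale.

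The factors of autoregulation lay somewhat above the middle of the distribution, TTC5 at the 61.3rd and SCAPER at the 68.6th percentile of folds. Neither passed the first test. TTC5, the reader of nascent tubulin (chr14:20286227-20305951), had 1524, 1979 and 1731 normalized counts in RIP, against 1332, 1382 and 1558 in the input columns. The ranges overlapped slightly, and the log2 fold of 0.29 had a 95% interval of -0.04 to 0.62 (limma adjusted p = 0.15). SCAPER, which links TTC5 to CCR4-NOT (chr15:76347904-76905340), had 1607, 1153 and 1152 normalized counts in RIP, against 1102, 812 and 826 in the input columns. Every RIP library lay above every input column, as for 27.4% of the genes tested, and the highest input column was close to the lower RIP libraries.

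SCAPER's log2 fold of 0.51 ± 0.19 (SE) fell just short of the threshold (limma adjusted p = 0.051). In the authors' deposited table it was 0.51 with an adjusted p (DESeq2) of 0.048. Without RIP replicate 1 it was 0.35 (limma adjusted p = 0.20), without input column 2 or 3 it was 0.43 and 0.44 (limma adjusted p = 0.17 and 0.15), and without any of the other 3 libraries it passed, at 0.59 to 0.65. The call for SCAPER therefore turns on single libraries, and also on processing, since it passed with a pseudocount of 10, a filter at a mean of 100 and a total without mitochondrial and small RNA (limma adjusted p = 0.046, 0.035 and 0.016). For TTC5 the authors' deposited table gave a log2 fold of 0.29 (DESeq2 adjusted p = 0.13), and with a total without mitochondrial and small RNA TTC5 passed at 0.42 (limma adjusted p = 0.044).

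How reads are scaled moved all of these values together. Dividing by total reads in genes, with mitochondrial RNA included, raised the median log2 fold of all genes tested to 0.45. Under that scaling 4 tubulins (TUBA1A, TUBA1B, TUBB and TUBB4B) were lower, where 9.86% of genes were, with log2 folds of -1.31, -1.35, -0.68 and -0.46. TUBA1C, TUBA4A and TUBB6 no longer passed (limma adjusted p = 0.092, 0.15 and 0.65), and TTC5 and SCAPER passed at 0.78 and 1.0 (limma adjusted p = 0.00096 and 0.0012), where 36.7% of genes were higher and 46.5% were called in either direction.

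**Figure D3:**
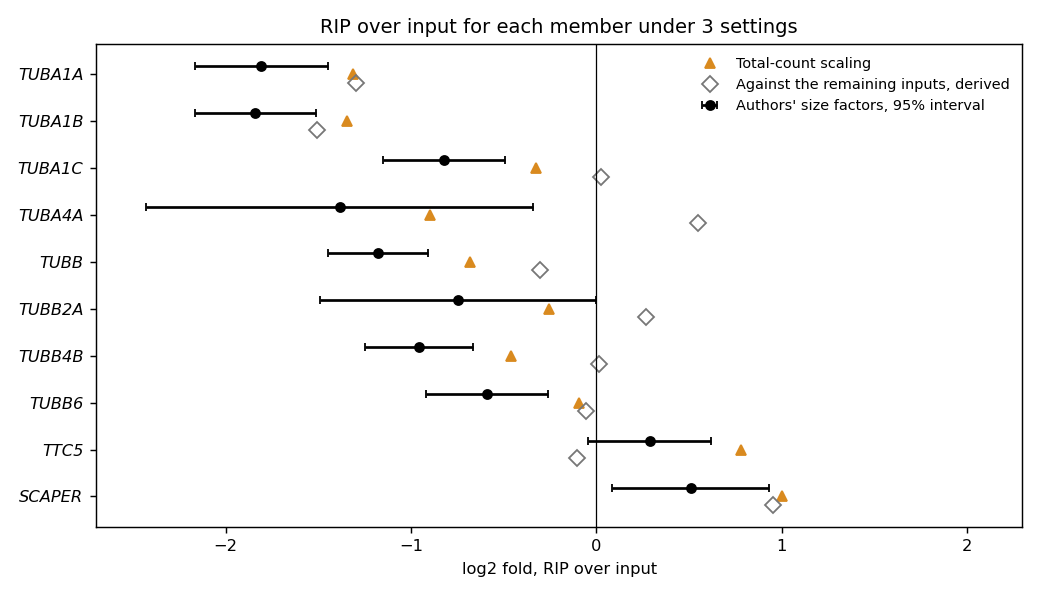
Log2 fold of RIP over input for each member: with the authors' size factors and a 95% interval (black), with total-count scaling (triangles), and against the derived mean of the 3 remaining inputs (diamonds, no error). The tubulins sit left of 0 in the first series. Against the remaining inputs TUBA1B (-1.51) and TUBA1A (-1.29) lie farthest below 0.

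The choice of inputs mattered too. The deposited mean over 9 libraries gave, after subtraction of the 6 columns, the mean of the 3 input libraries that have no column, on the same size factors. It has no SD and allows no test. TUBB stood at 32629 in RIP, 73883 in the input columns and 40272 in the remaining inputs. All 8 tubulins were higher in the input columns than in the remaining inputs, by a log2 difference of 0.32 (TUBA1B) to 1.96 (TUBA4A), with a median of 0.86. Over all genes tested this difference had a median of -0.01 and ran from -0.83 at the 10th to 0.87 at the 90th percentile. CNOT7, the bait's gene, was also higher in the input columns than in the remaining inputs, by 2.55 on the log2 scale, and no kind of input was assigned from such values.

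Against the remaining inputs the depletion was therefore smaller or gone for most tubulins. TUBA1B and TUBA1A had log2 folds of -1.51 and -1.29, and TUBB of -0.30. TUBB6, TUBB4B and TUBA1C stood at -0.054, 0.015 and 0.024, and TUBB2A and the scarce TUBA4A at 0.27 and 0.55. The median of the 8 was -0.02 and that of all genes tested was 0.02. SCAPER stood at 0.96 and TTC5 at -0.10 by this measure. Since the table does not mark doxycycline, which kind of input is closer to the RIP cells is not known.

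Ratios between isotypes within a library do not depend on scaling, but they can depend on how reads shared by similar genes were counted. TUBA1C differed from its neighbours by this measure. The log2 ratio of TUBA1B to TUBA1C was 0.49, 0.49 and 0.58 in RIP, against 1.57, 1.53 and 1.502 in the input columns, a 2.02-fold difference. That of TUBA1A to TUBA1C was -2.55, -2.98 and -2.61 in RIP, against -1.61, -1.79 and -1.78. The ratio of TUBA1A to TUBA1B overlapped between groups and averaged -3.23 ± 0.22 in RIP and -3.26 ± 0.07 in the input columns (SD, n = 3 each; exact permutation p = 0.90, two-sided).

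TUBA1C thus took 38.9%, 39.5% and 37.6% of the reads of the 3 TUBA1 genes in RIP, against 23.3%, 23.9% and 24.2% in the input columns. TUBA1B took 54.5% to 56.2% in RIP and 68.7% to 69.2% in the input columns. These are shares of reads, not corrected for transcript length.

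Against the input columns TUBB6 had the smallest depletion among β-tubulins, but against the remaining inputs TUBB4B and TUBB2A stood above it. The log2 ratio of TUBB to TUBB6 was 4.80, 4.49 and 4.68 in RIP, against 5.22, 5.31 and 5.21 in the input columns, and that of TUBB4B to TUBB6 was 1.93 to 2.196 in RIP and 2.35 to 2.49 in the input columns. The ratio of TUBB to TUBB4B averaged 2.62 ± 0.18 in RIP and 2.85 ± 0.03 in the input columns (SD, n = 3 each), and the groups overlapped (exact permutation p = 0.20, two-sided). Reads of the 4 α-tubulins over those of the 4 β-tubulins had a log2 ratio of -1.85, -1.64 and -1.55 in RIP, against -1.40, -1.27 and -1.20 in the input columns. These sums rest mostly on TUBA1B and TUBB, so they do not describe every gene of each family. In the input columns TUBB took 85.3% to 85.7% of β-tubulin reads and TUBA1B 68.7% to 69.2% of TUBA1 reads.

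A total of 7 such ratios were compared by a two-sided exact permutation test over libraries. With 3 libraries against 3 the smallest p of this test is 0.10, which the 5 ratios without overlap reached (exact permutation, 0.14 after Benjamini-Hochberg adjustment over the 7). Together the 8 tubulins made up 0.154%, 0.176% and 0.183% of all reads in RIP and 0.273%, 0.290% and 0.291% in the input columns.

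**Figure D4:**
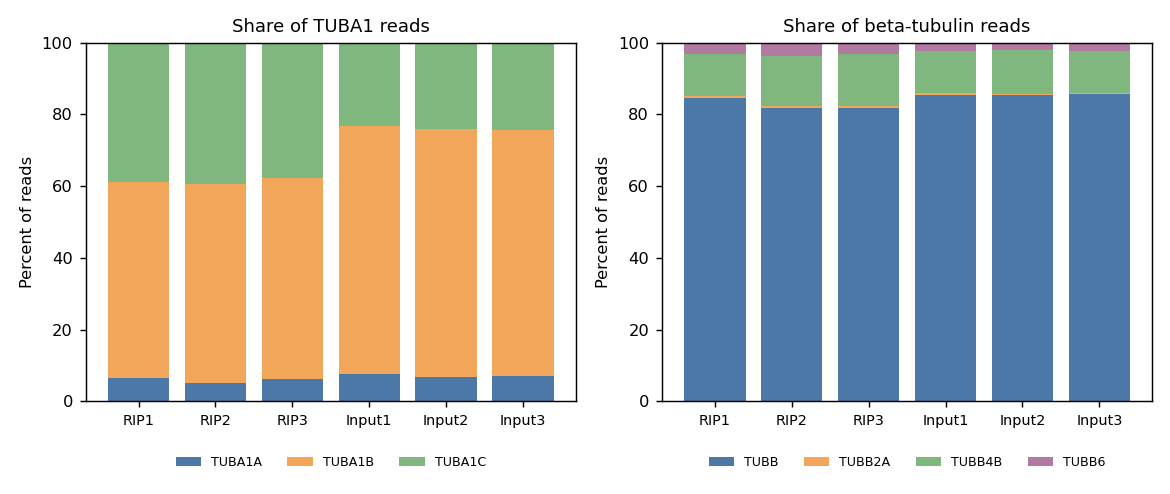
Percent of reads taken by each gene among the 3 TUBA1 genes (left) and among the 4 β-tubulin members (right), for the 3 RIP libraries and the 3 input columns. TUBA1C takes 37.6% to 39.5% of TUBA1 reads in RIP and 23.3% to 24.2% in the input columns.

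Processed copies of tubulin genes could share reads with their parents. Of 18 annotated tubulin pseudogenes, 3 passed the filter and none was called in either direction. The summed reads of the 18 came to 0.087% to 0.18% of the reads of the 8 tubulins in RIP and 0.066% to 0.10% in the input columns. How the counting treated reads that fit both a copy and its parent is not known. These percentages therefore do not measure how many reads were shared.

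Among other tubulin genes TUBB4A, TUBB2B and TUBG1 were lower in RIP and TUBE1 and TUBD1 higher. Of 14 listed, 11 had a row and 7 passed the filter, of which 3 were lower and 2 higher in RIP. Their median log2 fold was -0.28. Over all genes tested 21.2% were lower and 22.4% higher. TUBB4A, a β-tubulin known from the nervous system, had 1274, 1367 and 1332 normalized counts in RIP, against 2929, 3461 and 3557 in the input columns (log2 fold -1.32 ± 0.13 SE; limma adjusted p = 1.1e-05). TUBB2B had 491 to 541 in RIP and 1031 to 1157 in the input columns, a log2 fold of -1.08 (limma adjusted p = 0.00034). TUBG1, the γ-tubulin that nucleates microtubules, had 2066, 2299 and 2809 normalized counts in RIP, against 4713, 5945 and 5526 in the input columns (log2 fold -1.18 ± 0.15 SE; limma adjusted p = 4.5e-05). Against the remaining inputs TUBG1 stood at -0.69, TUBB2B at -0.49 and TUBB4A at -0.07.

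The centriolar tubulins went the other way. TUBE1, ε-tubulin, had 4332, 4259 and 3829 normalized counts in RIP, against 1256, 1065 and 1330 in the input columns. Each RIP library was thus more than 2 times the highest input column, with a log2 fold of 1.77 ± 0.14 (SE; limma adjusted p = 1.7e-06). TUBD1, δ-tubulin, had 932, 1171 and 877 normalized counts in RIP, against 547, 584 and 510 in the input columns (log2 fold 0.85 ± 0.19 SE; limma adjusted p = 0.0031). Both stayed above the remaining inputs, with derived log2 folds of 0.91 and 1.07. TUBG2 (-0.28) and the scarce neuronal TUBB3 (1.58) did not pass (limma adjusted p = 0.66 and 0.45), and TUBB3 had 11, 123 and 14 reads in the RIP libraries.

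New tubulin is folded by prefoldin and the chaperonin and then assembled into dimers by the cofactors TBCA to TBCE. Of 7 cofactor genes 4 were lower and 2 higher in RIP, with a median log2 fold of -0.95, where 21.2% of all genes tested were lower and 22.4% higher. TBCD, which helps join the α and β subunits, and TBCB, which binds α-tubulin, had log2 folds of -1.30 and -1.44 (limma adjusted p = 9.2e-06 and 4.1e-05). TBCC, which triggers release of the finished dimer, had 1446, 1093 and 1735 normalized counts in RIP, against 430, 723 and 650 in the input columns, a log2 fold of 1.25 ± 0.24 (SE; limma adjusted p = 0.00096). Of the 5 prefoldin genes tested 3 were lower and none higher, with a median of -0.59, led by VBP1 at -1.0 (limma adjusted p = 4.2e-05) and PFDN1 at -0.56 (limma adjusted p = 0.0073). PFDN6 had -0.94 and was not called without RIP replicate 1 or without any 1 input column (limma adjusted p = 0.051 to 0.069). Under total-count scaling PFDN1 and PFDN6 did not pass, at -0.07 and -0.44 (limma adjusted p = 0.74 and 0.24).

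Of 21 tested enzymes that modify tubulin 7 were lower and 1 was higher, with a median log2 fold of -0.45, where 21.2% of all genes tested were lower and 22.4% higher. AGBL5, which trims tails of tubulin, TPGS2, a subunit of the tubulin polyglutamylase complex, and the deacetylase SIRT2 had -1.45, -1.27 and -1.35 (limma adjusted p = 5.6e-06, 5.7e-06 and 0.00011). MATCAP1, which removes the last tyrosine of α-tubulin, was the one that rose, at 0.83 (limma adjusted p = 0.017), and it did not pass without RIP replicate 3 (limma adjusted p = 0.092) and stood at -0.13 against the remaining inputs.

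Of 34 genes tested that bind, cut or move microtubules 9 were higher and 6 lower, with a median log2 fold of 0.24, where 22.4% of all genes tested were higher and 21.2% lower. Under total-count scaling 20 were higher and 1 was lower, where 36.7% and 9.86% of all genes were. FIGNL1, of the fidgetin family, and the kinesin KIF18B had log2 folds of 1.45 and 1.06 (limma adjusted p = 3.4e-06 and 2.4e-05). STMN1, which holds free tubulin dimers, had -0.96 (limma adjusted p = 5.4e-05). Of 10 partners of γ-tubulin 5 were lower and 1 was higher, with a median of -0.43. MZT2B and TUBGCP2 had -1.92 and -0.82, and TUBGCP3 had 0.73 (limma adjusted p = 0.00022, 0.00023 and 0.00058). Each of these leading genes of the lists other than MATCAP1 kept its direction against the remaining inputs. MZT2B has a near-identical copy, MZT2A, which could share its reads.

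**Figure D5:**
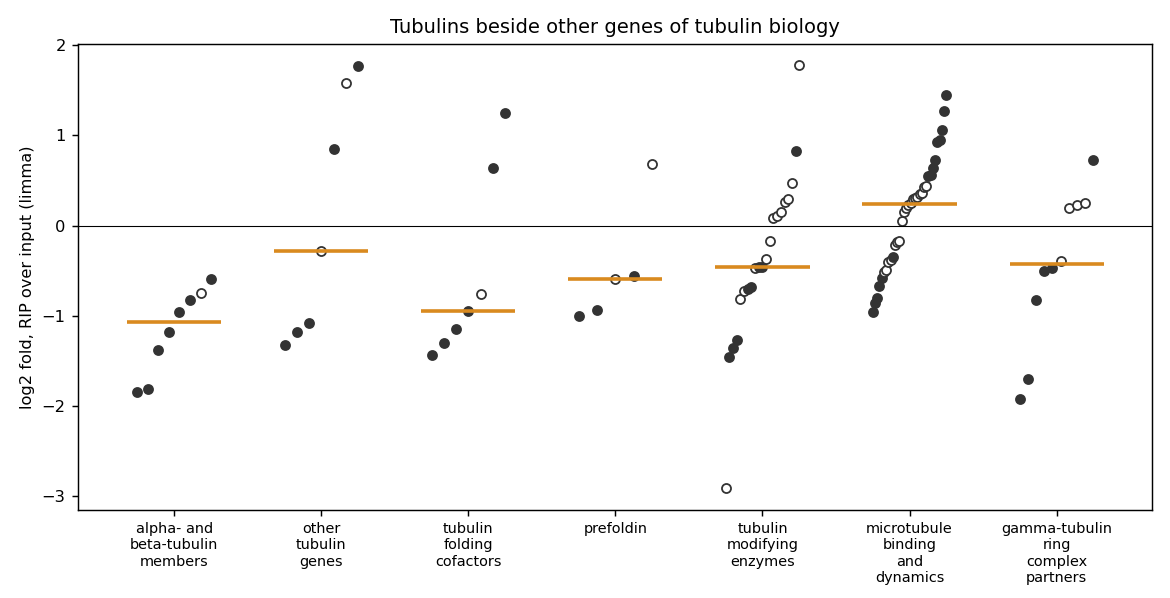
Log2 fold of RIP over input for the 8 tubulin members and for the tested genes of 6 lists of tubulin biology. Each point is a gene, filled where the limma adjusted p was under 0.05, and bars are medians, from -1.07 for the members to 0.24 for microtubule binding genes.

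The subunits of CCR4-NOT itself were 6 higher and 2 lower among 12 tested, with a median log2 fold of 0.52, where 22.4% of all genes tested were higher and 21.2% lower, and the list holds the bait. Under total-count scaling 10 were higher and 0 lower, where 36.7% and 9.86% of all genes were. Without mitochondrial and small RNA in the total 9 were higher and 0 lower. In that fit 4332 of all genes were higher and 2975 lower, so that 59.3% of called genes were higher. CNOT1, the scaffold, and TNKS1BP1, a partner of the complex, had 2.04 and 1.63 (limma adjusted p = 8.9e-07 and 7.4e-06). CNOT10 and CNOT11, which form the module of the complex linked to SCAPER, had -0.40 and -0.37 (limma adjusted p = 0.024 and 0.036). CNOT10 did not pass without RIP replicate 1 or input column 1 or 2, nor CNOT11 without RIP replicate 1 or 2 or any 1 input column (limma adjusted p = 0.059 to 0.13 in these fits). Both lay above 0 under total-count scaling, at 0.092 and 0.13.

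The genes most like the tubulins across libraries were sought among 12361 genes with a mean of at least 100 normalized counts. The measure was the root-mean-square difference between a gene's centred log2 values and the mean centred profile of the 8 tubulins over 6 libraries. SCAMP3 (0.029), PEF1 (0.038), MLST8 (0.039), DHCR7 (0.041) and USP5 (0.044) had the smallest log2 differences. Among the members TUBB (0.072) and TUBB4B (0.11) were nearest that profile and TUBB2A (0.38) farthest.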

How the data were processed

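The members and lists were chosen with earlier results of these data known. Per the submitters' processing notes the authors used STAR, featureCounts and DESeq2 and the build GRCh38. No versions, annotation or strand setting were given in the sources used here. Each library's deposited signal is gene counts that the authors divided by 1 size factor, and 100% of values came out as whole reads, within 0.01 of a read, so reads were recovered. The log2 folds, their standard errors, the Wald statistic (a score) and the p-values in the authors' deposited table come from DESeq2, per the file headers. Those log2 folds equalled the ratio of RIP to input column means within 0.01 for 98.7% of 16864 genes, and 9 times the deposited mean was below the sum of the 6 columns for 0 genes.

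Here limma 3.58.1 (trend) was fitted to log2(normalized count + 1) for all genes with a mean of at least 10, with Benjamini-Hochberg adjustment. It was tested on simulated counts with the same noise setting for every gene and no library that stood apart. That setting is simpler than these data. edgeR 4.0.16 and DESeq2 1.42.0 were run on the recovered reads as alternatives. A floor of 3 reads stood for 2.24 to 3.49 normalized counts, for counting error only, and the labels name no molecular identifiers that would separate PCR copies. Libraries of 1 group differed by a chi-square of 29.9 to 82.8 per degree of freedom, far above sampling noise, and each counted as a sample. Named genes were the members, the 3 genes with the smallest p in each list and the 5 most like the tubulins. Others were chosen after their values were seen. The planned grouping by first protein residues was not run. The pattern for pseudogenes was limited to rows annotated as such. Positions are from RefSeq, GRCh38.p14.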

Additional observations from a re-analysis of the deposited data

How the results depend on the processing

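TUBA1A, TUBA1B, TUBB and TUBB4B kept their direction and their call in all 16 alternatives with a test, with log2 folds of -1.93 to -1.31, -1.95 to -1.35, -1.23 to -0.68 and -1.04 to -0.46. With total-count scaling 6155 genes were higher and 1655 lower, against 3758 and 3550, so that 78.8% of called genes were higher against 51.4%, and 4 of 8 tubulins were lower against 7. Without mitochondrial and small RNA in the total the share was 59.3% and 6 tubulins were lower. Among the members TUBA1C, TUBA4A, TUBB4B and TUBB2A changed sign against the remaining inputs, to 0.024, 0.55, 0.015 and 0.27. TTC5 also changed sign, to -0.10. These values have no error, and the cause was not tested. CNOT10, CNOT11 and TUBG2 reversed with total-count scaling (0.092, 0.13 and 0.21), which adds to every fold, and TUBG2, never called, ran from -0.77 to 0.11 with 1 library left out and reversed without RIP replicate 1. Under total-count scaling 36.7% of all genes tested were higher and 9.86% lower. By that scaling 5 modifying enzymes were higher and 3 lower, and 4 γ-tubulin partners were higher and 2 lower. For prefoldin 1 gene was higher and 1 lower. On the recovered reads of the same 16765 genes edgeR called 3714 higher and 3435 lower, and 6 tubulins lower (TUBA4A at edgeR adjusted p = 0.0501). DESeq2 on these genes called 3772 higher and 3694 lower, and 7 tubulins lower. Leaving out 1 library gave 3121 to 3824 genes higher, 2881 to 3719 lower and 6 to 8 tubulins lower. In these fits 49.2% to 52.8% of all called genes were higher. Reads of TUBA4A limit its precision. The numbers in the column names were not shown to pair the libraries, as deviations from group means correlated by 0.25, 0.0025 and 0.24 for same-numbered columns, each the highest for its RIP library, a hint from the data and not the design. With the number as a replicate block 4053 of the 16765 genes tested were higher and 3925 lower, and 6 tubulins were lower. TUBA4A then had an adjusted p (limma) of 0.051 and SCAPER of 0.0096.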

Other observations

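Of the 7 tested tubulin genes outside the members some differed little between the input columns and the derived mean of the remaining inputs, with TUBG2 at 0.005, TUBD1 at 0.21 and TUBB3 at 0.26 on the log2 scale. TUBB4A averaged 1.26 higher on the log2 scale in the input columns, TUBB2B 0.59 and TUBG1 0.49, while TUBE1 was lower by this measure, at -0.86. The cofactors TBCB and TBCD stood at 0.01 each, the dimer-binding STMN1 at -0.03 and TTC5 at -0.40. These are differences of means without error, and no test was possible.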
